A study of Homo sapiens with 9 samples.

Results

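The genes described here are 7 markers of injured kidney tubule: HAVCR1, CLU, SPP1, SOX4, SOX9, PROM1 and CD24. They were chosen by symbol, and each matched 1 Ensembl identifier among the 58884 listed per library. HK-2 cells, an immortalised human line from the proximal tubule, were grown without serum in a keratinocyte medium with bovine pituitary extract and EGF. There were 3 groups of 3 libraries. Control cells are labelled untreated in the sample fields, while the general protocol gives controls the vehicle. The PM2.5 group received fine airborne particulate matter for 24 h. The lactoferrin + PM2.5 group received lactoferrin, an iron-binding milk and neutrophil protein, for 6 h and then PM2.5 for 18 h. The doses stated for the series are 40 mg/ml for lactoferrin and 1 mg/ml for PM2.5, in units that could not be checked. No group had lactoferrin alone, so its own effect and a changed response to PM2.5 cannot be told apart, and time in PM2.5 differs between the exposed groups. HK-2 is 1 line, and nothing in the labels says that replicates were separate cultures, so the p-values reflect the scatter among libraries, which may be technical.

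When a proximal tubule cell is injured it loses transport functions and takes on a repair state. HAVCR1 (kidney injury molecule 1, KIM-1) is a surface receptor for phosphatidylserine on dying cells, is hardly made by healthy proximal tubule, and its shed ectodomain is measured in urine as an injury marker. SPP1 (osteopontin) and CLU (clusterin) are secreted, the first a ligand of CD44 and integrins, the second an extracellular chaperone. CD24 is a small glycosylated surface protein, and PROM1 (CD133) a membrane protein of cell protrusions; together they mark scattered tubular cells and cells in regeneration. SOX9 and SOX4 are HMG-box transcription factors that are switched on during tubular repair and, for SOX4, in many epithelial tumours.

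With PM2.5, HAVCR1, CD24 and SOX4 were lower and SPP1 was higher than in control. CD24 stood at 395.7 ± 74.8 FPKM in control and 89.0 ± 10.7 FPKM with PM2.5 (SD, n = 3 each), SOX4 at 62.8 ± 8.92 and 19.1 ± 2.35 FPKM, HAVCR1 at 192.6 ± 32.6 and 99.6 ± 13.9 FPKM, and SPP1 at 682 ± 118 and 1159 ± 12.6 FPKM. FPKM are fragments per kilobase of gene scaled to the library's assigned reads. Levels of different genes can be set side by side only relative to the gene lengths used. With lactoferrin before PM2.5 the same 4 genes differed from control in the same directions, and none of the 6 tested passed against PM2.5 alone. With libraries weighted by their fit to the group means, HAVCR1 and SOX4 passed that comparison. CLU and SOX9 passed no test in the fit of all 9 libraries with equal weight, CLU passing against control under some other settings given with its values, and PROM1 was near 0 throughout.

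The bases before the first annotated transcript start are printed for 2 of the 3 genes that fell and the 1 that rose. They come from the RefSeq promoter table (GRCh38.p14), 5′ to 3′ on the gene's strand with CpG dinucleotides in capitals. The table held windows for 5 of the 7 genes, and CLU and SOX9 had no entry. CD24 had 3 windows, of which the one furthest upstream was used. SOX4, the third gene that fell, is not printed because its window lies within an annotated exon. The HAVCR1 stretch is chr5:157059120-157059366 on the minus strand, that of CD24 chr6:106975628-106975877 on the minus strand, and that of SPP1 chr4:87975464-87975649 on the plus strand.
HAVCR1: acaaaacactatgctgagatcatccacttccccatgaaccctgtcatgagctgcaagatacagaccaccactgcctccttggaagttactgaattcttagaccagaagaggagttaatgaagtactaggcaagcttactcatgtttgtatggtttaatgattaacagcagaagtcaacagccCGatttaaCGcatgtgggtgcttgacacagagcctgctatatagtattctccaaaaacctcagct
CD24: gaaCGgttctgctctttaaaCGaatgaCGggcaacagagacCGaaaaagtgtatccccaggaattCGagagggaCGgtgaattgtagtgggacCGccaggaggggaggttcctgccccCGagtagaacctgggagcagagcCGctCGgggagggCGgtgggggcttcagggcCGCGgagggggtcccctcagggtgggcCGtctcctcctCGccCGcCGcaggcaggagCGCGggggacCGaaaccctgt
SPP1: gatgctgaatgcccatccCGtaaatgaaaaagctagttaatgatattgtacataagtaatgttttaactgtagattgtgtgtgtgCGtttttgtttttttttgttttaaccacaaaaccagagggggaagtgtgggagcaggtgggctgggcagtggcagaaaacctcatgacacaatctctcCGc
The HAVCR1 stretch (247 bases) held 2 CpG and 43.3% G and C, and 14.9% of the 35116 windows in the table, cut to the same length, held fewer CpG. The SPP1 stretch (186 bases) held 3 CpG and 41.9% G and C, with 30.1% of windows holding fewer. The CD24 stretch (250 bases) held 20 CpG and 65.6% G and C, with 67.5% of windows holding fewer. HAVCR1 and CD24, which both fell, thus differ in the CpG content of these stretches. HAVCR1 and SPP1, which went opposite ways, both held few CpG. SOX4 was not compared.

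In the test over all genes, log2(FPKM + 0.5) was fitted in limma after scaling between libraries, with Benjamini-Hochberg adjustment over the 14454 genes that reached 0.5 FPKM in at least 3 libraries. A gene is called at an adjusted p under 0.05. Of the 7 markers 6 passed the filter, and PROM1 did not. The libraries held 15313451 to 18820465 assigned reads as rebuilt from the values. Lactoferrin + PM2.5 replicate 1 stood apart on the second principal component (38.1, the other libraries of its group 7.92 and -7.12) and control replicate 3 on the third (27.0). Every pair of replicates differed beyond counting noise (chi-square per gene 2.56 or more).

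Of the 6 tested markers 4 were called in PM2.5 against control, 3 lower and 1 higher, where 35.1% of all tested genes were called (16.4% lower and 18.7% higher). Their median log2 fold change was -0.62, beside 0.00 over all tested genes. In lactoferrin + PM2.5 against control the same 4 were called, again 3 lower and 1 higher, where 38.5% of genes were called (18.2% lower and 20.4% higher), and the median was -0.89. These 2 comparisons share the control libraries. In lactoferrin + PM2.5 against PM2.5, 0 of the 6 were called by limma, where 0.0484% of genes (7) were called. By limma-voom on rebuilt reads 0 of the 6 were called, where 16 of 14440 genes were. At an unadjusted p under 0.05 there were 2 markers, HAVCR1 and SOX4, where 12.2% of genes passed.

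The spread of the libraries can be read without a model from the overlap of the groups. With PM2.5 all 6 tested markers lay apart from control, SPP1 and CLU above and HAVCR1, SOX4, SOX9 and CD24 below, where 53.6% of all tested genes lay apart (30.9% higher and 22.7% lower). SOX9 counts here only with a limit. It passed the filter through control replicates 1 and 3 and lactoferrin + PM2.5 replicate 3, and no PM2.5 library reached 0.5 FPKM. With lactoferrin + PM2.5 4 of the 6 lay apart from control, SPP1 above and HAVCR1, SOX4 and CD24 below, where 47.5% of genes did (26.8% higher and 20.7% lower). Between the exposed groups SPP1 lay apart above and HAVCR1 below, where 21.1% of genes did (11.3% higher and 9.79% lower). In bulk RNA, fewer cells with a transcript and less of it per cell cannot be told apart.

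**Figure D1:**
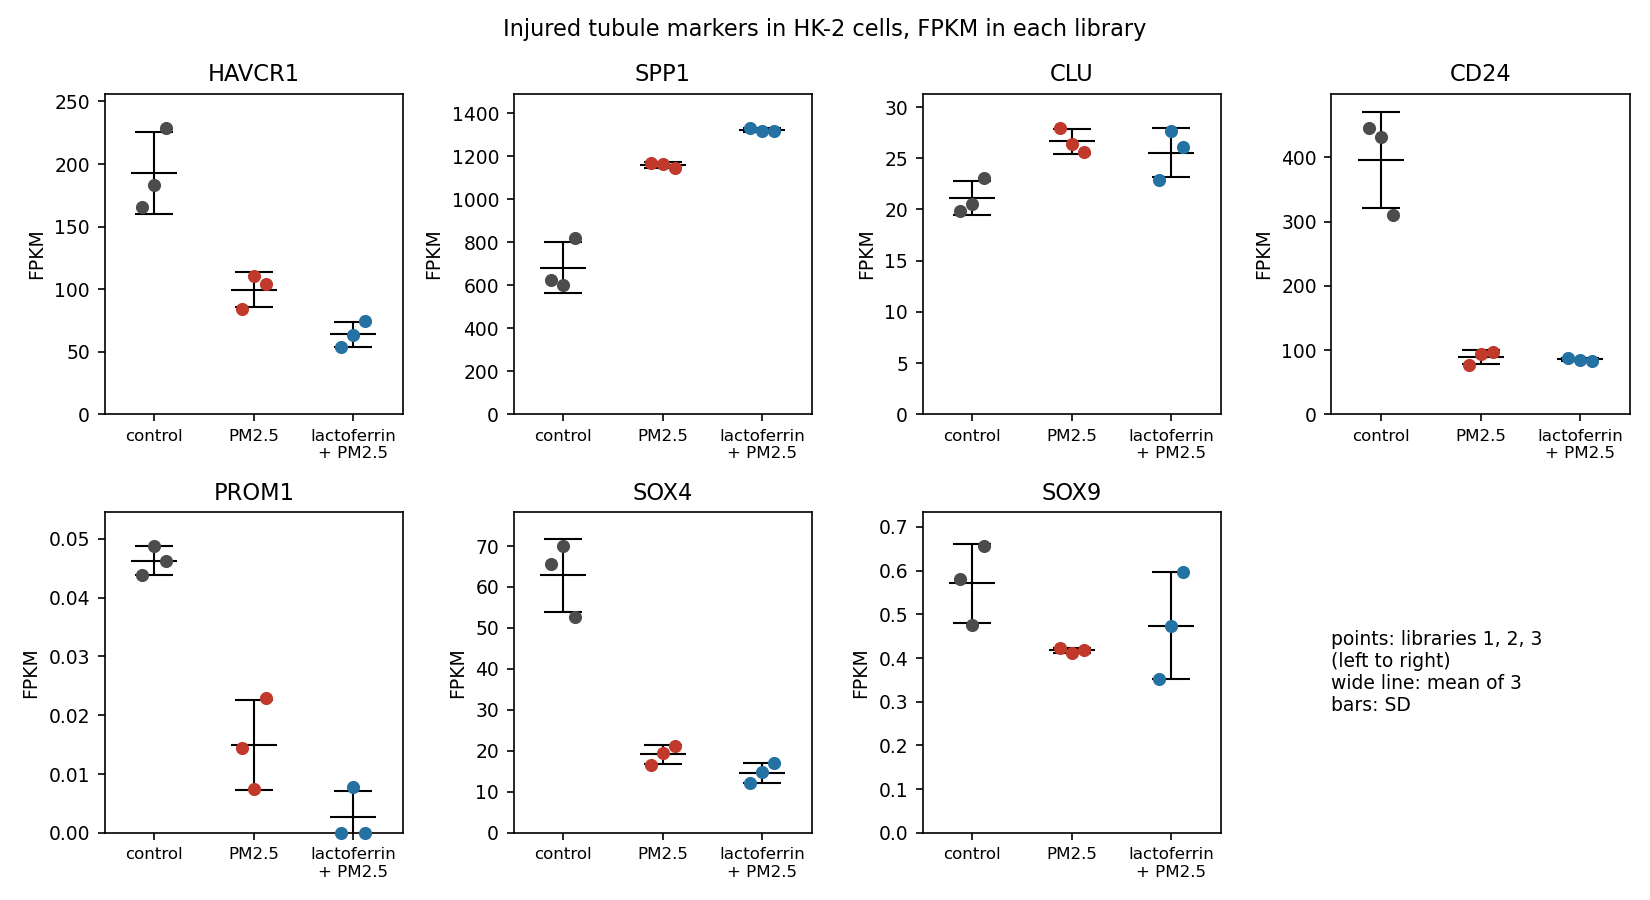
FPKM of each of the 7 markers (y axis, linear, from 0) in the 3 libraries of each group (x axis); points are libraries, wide lines the mean and bars the SD. HAVCR1, CD24 and SOX4 lie lower in all exposed libraries than in control, SPP1 lies higher, and PROM1 stays under 0.05 FPKM.

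HAVCR1 (ENSG00000113249, GRCh38 chromosome 5, 157029413 to 157059119, minus strand, protein coding) is the receptor of the group. Its level was 165.7, 183.3 and 228.9 FPKM in control replicates 1 to 3, 83.9, 110.7 and 104.2 FPKM with PM2.5, and 53.9, 63.2 and 74.4 FPKM with lactoferrin + PM2.5. The 3 groups did not overlap: every PM2.5 library lay below every control, and every lactoferrin library below every PM2.5 library. PM2.5 against control gave a log2 fold change of -0.99 ± 0.16 (SE; limma adjusted p = 0.00178), and lactoferrin + PM2.5 against control -1.62 ± 0.16 (adjusted p = 9.1e-05). Lactoferrin + PM2.5 against PM2.5 gave -0.63 ± 0.16 (limma unadjusted p = 0.0038, adjusted p = 0.297), so that step did not pass the test. The difference of -0.63 was lower than those of all but 1.79% of tested genes. With libraries weighted by their fit to the group means HAVCR1 passed, at -0.68 ± 0.10 (limma adjusted p = 0.00726), where the same weights called 1826 of all tested genes.

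An injury marker was thus abundant in the untreated line: HAVCR1 ranked 151 of the tested genes by mean FPKM in control, 332 with PM2.5 and 606 with lactoferrin + PM2.5. Its values rested on 2183 to 8588 reads per library, all whole numbers to within 0.05 when rebuilt from FPKM with the GENCODE v29 exon length. The processed pseudogene HAVCR1P1, which could take or give reads, did not exceed 0.163 FPKM.

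SPP1 (ENSG00000118785, chromosome 4, 87975650 to 87983426, plus strand) went the other way. It stood at 625.5, 603 and 818.5 FPKM in control, 1170, 1163 and 1146 FPKM with PM2.5, and 1332, 1316 and 1318 FPKM with lactoferrin + PM2.5. All exposed libraries lay above all controls, and all lactoferrin libraries above all PM2.5 libraries. In these unscaled FPKM the spread within the exposed groups was small, with a coefficient of variation of 1.09% and 0.657%, beside 17.3% in control, where replicate 3 was the highest. After the scaling used in the test the exposed libraries lay further apart. They then stood at 1181, 1149 and 1105 with PM2.5, and 1355, 1307 and 1278 with lactoferrin + PM2.5. The log2 fold change was 0.73 ± 0.14 with PM2.5 (SE; limma adjusted p = 0.00437) and 0.93 ± 0.14 with lactoferrin + PM2.5 against control (adjusted p = 0.00102). Lactoferrin + PM2.5 against PM2.5 gave 0.20 ± 0.14 (limma adjusted p = 0.53). SPP1 ranked 32 by mean FPKM in control, 26 with PM2.5 and 20 with lactoferrin + PM2.5, and was the most abundant of the 7 in every library.

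CLU (ENSG00000120885, chromosome 8, 27596917 to 27615031, minus strand), the second secreted marker, differed little. It stood at 19.9, 20.5 and 23.0 FPKM in control, 27.97, 26.4 and 25.6 FPKM with PM2.5, and 22.9, 27.6 and 26.1 FPKM with lactoferrin + PM2.5. The PM2.5 libraries lay above the controls, while lactoferrin + PM2.5 replicate 1 lay within the control range. The log2 fold changes were 0.28 ± 0.10 with PM2.5 (SE; limma adjusted p = 0.0577) and 0.23 ± 0.10 with lactoferrin + PM2.5 against control (adjusted p = 0.106). Without control replicate 3, which had the highest of the control values, CLU passed the test in both: 0.36 ± 0.09 (adjusted p = 0.0183) and 0.31 ± 0.09 (adjusted p = 0.032). With weighted libraries it also passed, at 0.31 ± 0.07 (limma adjusted p = 0.00303) and 0.37 ± 0.07 (adjusted p = 0.00103). The difference between the exposed groups was -0.05 ± 0.10 (limma adjusted p = 0.818).

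CD24 (ENSG00000272398, chromosome 6, 106969831 to 106975627, minus strand) had the largest change of the 6 tested markers in both comparisons with control. It stood at 445.8, 431.7 and 309.8 FPKM in control, 76.7, 93.7 and 96.5 FPKM with PM2.5, and 87.5, 85.2 and 83.5 FPKM with lactoferrin + PM2.5. Even the lowest control, replicate 3, lay far above all 6 exposed libraries, and the exposed groups overlapped. PM2.5 against control gave -2.18 ± 0.13 (SE; limma adjusted p = 6.12e-06), a 4.45-fold lower mean FPKM, and lower than all but 0.201% of the changes of tested genes. Lactoferrin + PM2.5 against control gave -2.22 ± 0.13 (limma adjusted p = 4.08e-06), and against PM2.5 -0.04 ± 0.13 (adjusted p = 0.893). From rank 69 by mean FPKM in control CD24 went to 372 and 429. Its values did not rebuild to whole reads with the GENCODE v29 exon length. The authors may have used another length, which was not tested, and the FPKM level of CD24 is relative to the length used. Among processed pseudogenes of CD24, only CD24P1 and CD24P2 were looked at. CD24P1 was listed at 0 in every library and CD24P2 in all but 1, where it had 0.524 FPKM.

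PROM1 (ENSG00000007062, chromosome 4, 15963076 to 16084378, minus strand), the partner of CD24 in marking scattered tubular cells, was close to undetected. It had 5, 6 and 6 reads in the control libraries, 2, 1 and 3 with PM2.5, and 0, 1 and 0 with lactoferrin + PM2.5, at most 0.0487 FPKM. The controls lay above all exposed libraries, by a few reads. With every gene kept, limma gave -0.09 ± 0.03 with PM2.5 (adjusted p = 0.0602) and -0.12 ± 0.03 with lactoferrin + PM2.5 against control (adjusted p = 0.0146), values that the added 0.5 FPKM holds near 0. Cells that carry both CD24 and PROM1 cannot be counted in bulk RNA.

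SOX4 (ENSG00000124766, chromosome 6, 21592768 to 21598619, plus strand) stood at 65.7, 69.9 and 52.8 FPKM in control, 16.6, 19.5 and 21.2 FPKM with PM2.5, and 12.03, 14.8 and 17.0 FPKM with lactoferrin + PM2.5. All exposed libraries lay below all controls, and lactoferrin + PM2.5 replicate 3 lay within the PM2.5 range. PM2.5 against control gave -1.73 ± 0.13 (SE; limma adjusted p = 1.95e-05), a 3.29-fold lower mean, and lactoferrin + PM2.5 against control -2.11 ± 0.13 (adjusted p = 4.74e-06), a 4.30-fold lower mean. Lactoferrin + PM2.5 against PM2.5 gave -0.37 ± 0.13 (limma unadjusted p = 0.0178, adjusted p = 0.372), and with weighted libraries -0.39 ± 0.08 (adjusted p = 0.0201). SOX4 is a single-exon gene, and AL512380.2, which overlaps it on the other strand, had 1 read in all libraries together.

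SOX9 (ENSG00000125398, chromosome 17, 72121020 to 72126420, plus strand) was barely above the filter. It stood at 0.581, 0.476 and 0.656 FPKM in control, 0.423, 0.411 and 0.419 FPKM with PM2.5, and 0.351, 0.474 and 0.598 FPKM with lactoferrin + PM2.5, or 26 to 45 reads per library. Every PM2.5 library lay below every control, and the lactoferrin group spanned both. The gap between PM2.5 and control was small, as control replicate 2 and PM2.5 replicate 1 both had 31 reads. The log2 fold changes were -0.24 ± 0.16 with PM2.5 (SE; limma adjusted p = 0.252), -0.16 ± 0.16 with lactoferrin + PM2.5 against control (adjusted p = 0.442) and 0.08 ± 0.16 between the exposed groups (adjusted p = 0.818). The antisense gene SOX9-AS1 had 2 reads in all libraries together.

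In control the order of mean levels, per length, was SPP1, CD24, HAVCR1, SOX4, CLU, SOX9 and PROM1. With PM2.5 it was SPP1, HAVCR1, CD24, CLU, SOX4, SOX9 and PROM1, and with lactoferrin + PM2.5 SPP1, CD24, HAVCR1, CLU, SOX4, SOX9 and PROM1. HAVCR1 and CD24 overlapped with PM2.5 (83.9 to 110.7 against 76.7 to 96.5 FPKM), so their order there is within the spread. CLU and SOX4 did not overlap in any group and exchanged places between control and the exposed groups. The order of different genes depends on the gene lengths behind their FPKM. For CD24 that length was not settled. The summed FPKM of the 7 markers was 1309 to 1434 in control, 1376 to 1413 with PM2.5 and 1507 to 1520 with lactoferrin + PM2.5. SPP1 was the largest single share of it in every library.

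**Figure D2:**
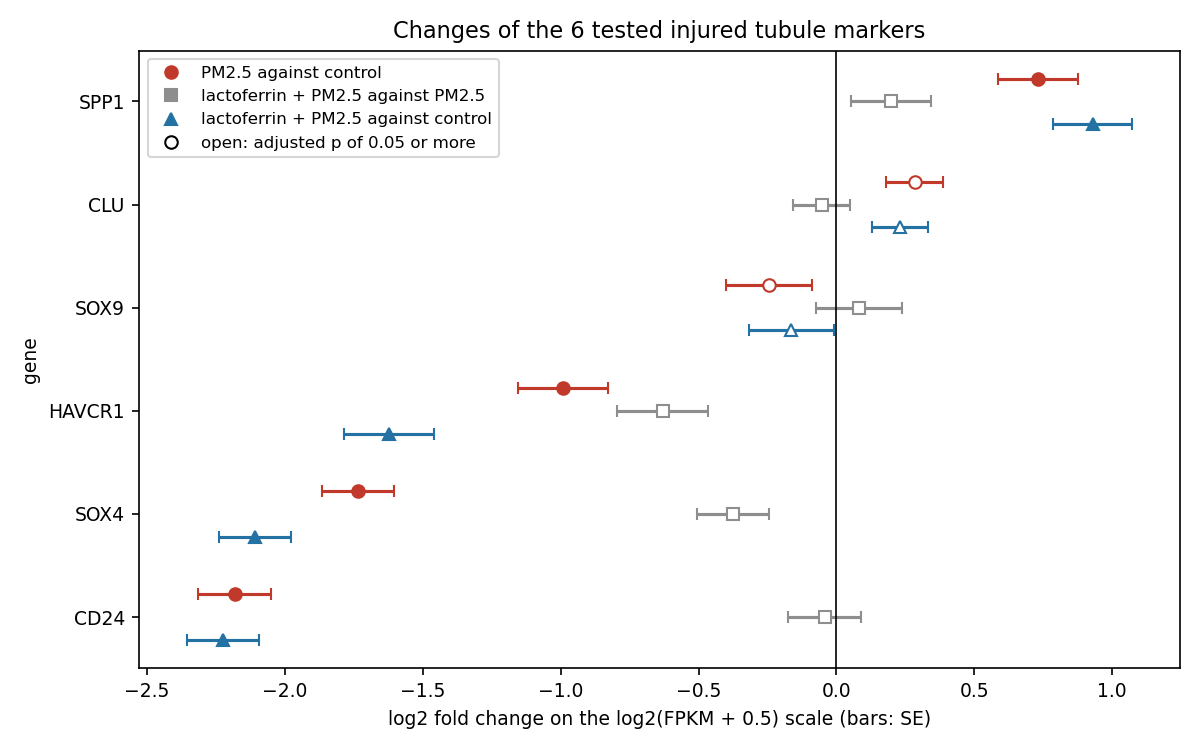
Log2 fold changes of the 6 tested markers (x axis; bars are SE) in the 3 comparisons, from limma; filled symbols passed an adjusted p of 0.05. SPP1 lies right of 0 and HAVCR1, SOX4 and CD24 lie left of it in both comparisons with control, and all symbols for lactoferrin + PM2.5 against PM2.5 are open.

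The genes most like each marker over the 9 libraries are given by Pearson's r of log2 values, as a description; all libraries are shared and most of the likeness is that between control and exposed. For HAVCR1 they were BICC1 (0.996), SVIL (0.995) and CDC42EP3 (0.994). BICC1, an RNA-binding protein of renal tubules, had a mean of 83.3, 46.4 and 32.8 FPKM in control, PM2.5 and lactoferrin + PM2.5, the same falling order as HAVCR1. For SOX4 they were HOXA3 (0.998), ASTN2 (0.997) and the keratin gene KRT80 (0.997), and for CD24 the caveolin gene CAV1 (0.997), ULK4 (0.996) and the histone gene H2AC6 (0.996). For SPP1 they were PPID (0.993), MAOA (0.993) and the mitochondrial chaperone gene HSPA9 (0.992). Among the genes most like CLU was ZNF438 (0.967), and among those most like SOX9 were CAMKK1 (0.912) and LGMN (0.910).

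Genes that act with the markers were taken from lists of receptors and partners. Of 10 receptor genes for osteopontin 8 were tested, and with PM2.5 4 rose and 2 fell, where 18.7% of all tested genes rose and 16.4% fell (median log2 fold change of the list 0.22). ITGB5, an integrin chain that pairs with alpha v, rose from 16.0 ± 0.470 to 33.1 ± 1.15 FPKM (SD, n = 3 each; 0.98 ± 0.09, SE, limma adjusted p = 4.36e-05). The hyaluronan and osteopontin receptor CD44 rose from 25.0 ± 0.498 to 48.8 ± 0.405 FPKM (0.91 ± 0.09, limma adjusted p = 0.000127), and the fibronectin receptor chain ITGA5 by 0.64 ± 0.16. The alpha v chain itself, ITGAV, fell from 93.9 ± 6.88 to 59.1 ± 6.99 FPKM (-0.72 ± 0.19, limma adjusted p = 0.0162), and ITGB6, an epithelial integrin chain, fell from 1.75 ± 0.304 to 0.378 ± 0.104 FPKM (-1.39 ± 0.15). With lactoferrin + PM2.5 against control 3 rose and 2 fell, where 20.4% of all tested genes rose and 18.2% fell. Against PM2.5 0 of the 8 were called by limma or limma-voom, with 1 at an unadjusted p under 0.05, where 12.2% of all tested genes had such a p. The receptor genes of the rising ligand SPP1 thus split, with signs of the fold change with PM2.5 positive in 4 and negative in 4.

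Of 4 receptor genes for clusterin 2 were tested. LRP8, a lipoprotein receptor, rose from 2.43 ± 0.188 to 7.32 ± 0.107 FPKM with PM2.5 (SD, n = 3 each; 1.38 ± 0.11, SE, limma adjusted p = 3.17e-05), and VLDLR did not pass (-0.04 ± 0.11, adjusted p = 0.788). LRP2 (megalin), the clusterin receptor of the proximal tubule, did not exceed 0.0142 FPKM.

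Of 17 genes for phosphatidylserine receptors and uptake of dying cells, the function of HAVCR1, 11 were tested. With PM2.5 3 rose and 2 fell, 5 of 11 beside 35.1% of all tested genes called, with a median of -0.22. The receptor kinase MERTK rose from 3.81 ± 0.701 to 8.06 ± 0.373 FPKM (SD, n = 3 each; 0.96 ± 0.18, SE, limma adjusted p = 0.00297), and TIMD4, a relative of HAVCR1, by 0.76 ± 0.20. GAS6, a bridging ligand, fell by 0.36 on the log2 scale and the engulfment gene DOCK1 by 0.48. HAVCR1 and TIMD4, related receptors, were thus called in opposite directions. Against control, lactoferrin + PM2.5 had 1 higher and 4 lower, where 20.4% of all tested genes were higher and 18.2% lower. Of 7 genes for ADAM sheddases, the protease family that releases surface proteins, 6 were tested, and with PM2.5 2 rose and 2 fell, where 18.7% of all tested genes rose and 16.4% fell. ADAM12 (0.55 ± 0.11) and ADAM15 (0.51 ± 0.13) rose while ADAM10 (-0.52 ± 0.14) and ADAM9 (-0.64 ± 0.20) fell.

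Besides SOX4 and SOX9, 18 SOX genes were listed and 5 tested. With PM2.5 0 of the 5 were called by limma or by limma-voom, where limma called 35.1% of all tested genes. Of these 5, 1 had an unadjusted p under 0.05, SOX18 (-0.58 ± 0.22, SE, limma adjusted p = 0.0682). SOX12, the relative of SOX4 in the same subgroup, stood at 24.6 ± 0.723 and 25.8 ± 0.509 FPKM (SD, n = 3 each; 0.02 ± 0.10, SE, limma adjusted p = 0.873). SOX11, the third of that subgroup, stood at 0.763 ± 0.106 and 0.688 ± 0.0537 FPKM, and was lower with lactoferrin + PM2.5 against control (-0.43 ± 0.14, limma adjusted p = 0.0308).

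Other genes reported in injured or incompletely repaired proximal tubule did not move as one with PM2.5. Of 36 such genes 32 were tested, 4 rose and 15 fell, where 18.7% of all tested genes rose and 16.4% fell, with a median log2 fold change of -0.34. TGFB2, a transforming growth factor, fell from 69.6 ± 8.83 to 13.5 ± 3.14 FPKM (SD, n = 3 each; -2.39 ± 0.19, SE, limma adjusted p = 2.83e-05), and CCN2, the connective tissue growth factor, from 111 ± 2.1 to 43.2 ± 8.27 FPKM (-1.41 ± 0.13). The cell cycle inhibitor CDKN1A rose from 30.3 ± 5.68 to 82.7 ± 6.31 FPKM (1.40 ± 0.13, limma adjusted p = 5.3e-05), as did the chemokine gene CXCL2. With lactoferrin + PM2.5 against control 6 rose and 17 fell, where 20.4% of all tested genes rose and 18.2% fell. Against PM2.5 0 of 32 were called by limma, 2 by limma-voom, and 18 had an unadjusted p under 0.05. Of all tested genes 0.0484% were called by limma and 12.2% had such a p. Of the 32 fold changes 22 were negative and 10 positive. The list was chosen with earlier results of these data known, so these shares are not a test of the list. The smallest adjusted p against PM2.5 were those of the adhesion gene VCAM1 (-0.78 ± 0.12, limma adjusted p = 0.0715), the growth factor gene PDGFB (-0.78 ± 0.12, limma adjusted p = 0.0752) and the metalloproteinase gene MMP7, at 26.9 ± 1.66 and 15.7 ± 1.91 FPKM (-0.75 ± 0.12, limma adjusted p = 0.0814).

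Soluble injury markers measured in urine or blood also split. Of 16 genes 11 were tested, and with PM2.5 4 rose and 1 fell, 5 of 11 beside 35.1% of all tested genes called (median 0.06). VEGFA rose from 2.88 ± 0.316 to 9.78 ± 0.626 FPKM (SD, n = 3 each; 1.57 ± 0.13, SE, limma adjusted p = 2.75e-05), GDF15 and LCN2 (1.00 ± 0.10) rose, and IGFBP7, a cell cycle arrest marker, fell from 65.7 ± 5.38 to 51.6 ± 2.96 FPKM (-0.39 ± 0.09). LCN2 was the 1 gene of these lists called in lactoferrin + PM2.5 against PM2.5 (-1.11 ± 0.10, limma adjusted p = 0.00616). That call was lost when lactoferrin + PM2.5 replicate 2 was left out, and likewise for replicate 1 or replicate 2 of the PM2.5 group, each of which left 0 of all genes called by limma. The 2 urinary markers HAVCR1 and LCN2 were thus called in opposite directions with PM2.5.

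Genes of scattered tubular and progenitor-type cells, the cells that CD24 and PROM1 mark, gave 3 higher and 4 lower of 13 tested with PM2.5, beside 18.7% of all tested genes higher and 16.4% lower (17 listed, median -0.20). The nephron transcription factor PAX8 rose from 52.2 ± 1.91 to 82.3 ± 3.44 FPKM (SD, n = 3 each; 0.61 ± 0.08, SE, limma adjusted p = 0.000537), CD44, which is also in the osteopontin receptor list, rose, and KRT7 (-1.15 ± 0.14) and ANXA3, which encodes annexin A3, fell (-0.96 ± 0.13).

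**Figure D3:**
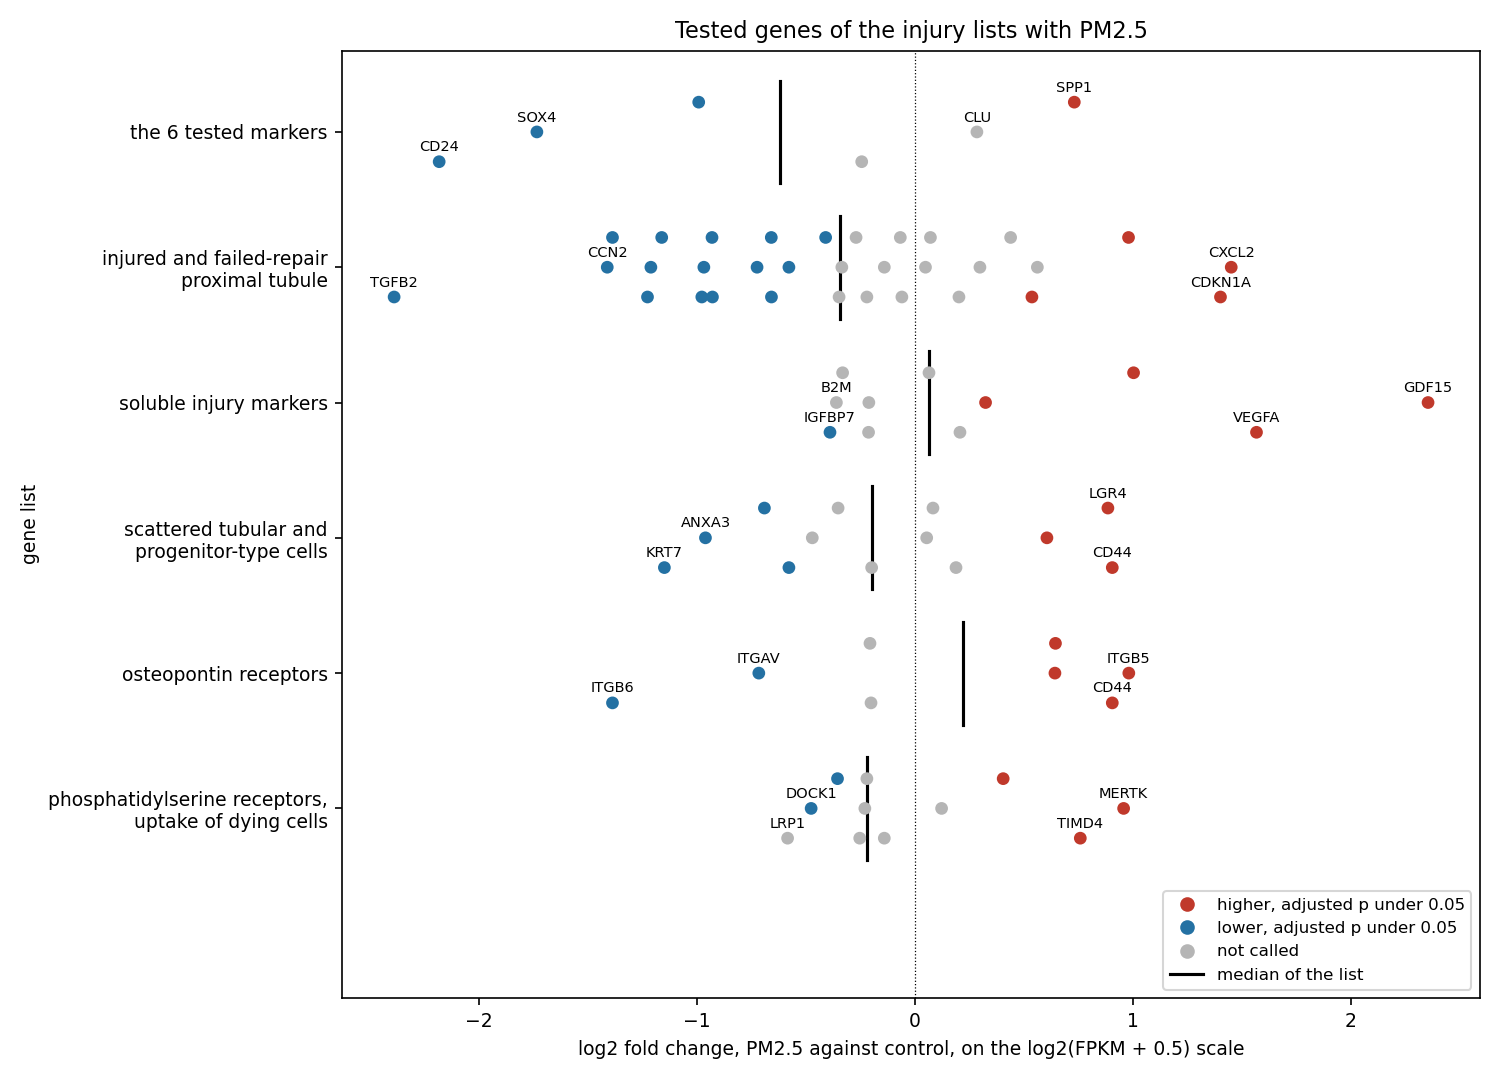
Log2 fold changes of tested genes in PM2.5 against control (x axis) by gene list (rows, points spread vertically for legibility), with called genes in colour, the list's median as a black line and the outermost 2 genes on each side named. The 6 tested markers have a median of -0.62 and the injured and failed-repair list one of -0.34, and the medians of the other 4 lists lie between -0.22 and 0.22 with called genes on both sides.

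Markers of the cell type were sparse. Of 30 proximal tubule identity markers 21 stayed below 0.5 FPKM in every library, among them CUBN (at most 0.0319 FPKM) and SLC34A1 (at most 0.296 FPKM). Of the 9 tested, 3 rose and 3 fell with PM2.5, among the former MIOX, a proximal tubule oxygenase (6.18 ± 1.53 to 19.98 ± 2.19 FPKM, SD, n = 3 each). All 10 loop, distal and collecting duct markers stayed below 0.5 FPKM in every library, their sum being 0.295 to 0.344 FPKM in control, 0.0836 to 0.229 with PM2.5 and 0.166 to 0.246 with lactoferrin + PM2.5. Of 9 immune markers 7 stayed below 0.5 FPKM, with sums of 19.0 to 21.3, 12.9 to 14.5 and 13.8 to 15.6 FPKM in the same order, nearly all CD74. Of 11 fibroblast and endothelial markers 8 stayed below it, with sums of 48.1 to 54.4, 66.2 to 68.1 and 50.8 to 55.1 FPKM, mostly LUM, the gene of the matrix protein lumican. Of 6 podocyte markers 5 stayed below it. The part of these sums in the results above was not tested.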

How the data were processed

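RNA-seq values of 9 HK-2 libraries were used, 3 per group by the labels. The authors deposited FPKM for 58884 Ensembl identifiers per library. Per the submitters' processing notes the build was GRCh38 and the tools included HISAT2 2.1.0 and featureCounts 1.6.0, with Trimmomatic 0.38, DESeq2 1.22.1, FastQC, MultiQC and CASAVA also listed, with no order. The annotation release and the strand setting were not given in the sources used here. Reads were rebuilt from FPKM with GENCODE v29 exon lengths (58611 identifiers); 85.9% to 87.2% of values up to 200 reads were whole within 0.05 reads. They served for scaling (trimmed mean of M values, factors 0.943 to 1.04), depth (15313451 to 18820465 per library) and limma-voom.

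The values log2(FPKM/factor + 0.5) entered limma 3.58.1 under R 4.3.3, as a model of the 3 groups with a trended prior and robust moderation, for genes with at least 0.5 FPKM in at least 3 libraries, and p-values were adjusted by Benjamini-Hochberg over 14454 genes. A fold change on this scale understates that of low genes. The fit was tested on simulated data. The markers and the 13 other gene lists were chosen with earlier results of these data known. Text names all 7 markers, at most 4 genes per list and comparison with the smallest adjusted p, defining cell markers, and the 3 genes most like each marker, of which some are not reported here; cell type markers at low levels were named after their values were seen. Settings varied were pseudocount, filter, scaling, libraries fitted, replicate block, limma-voom and library weights. Figures used Python 3.11.15 and matplotlib 3.10.9.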

Additional observations from a re-analysis of the deposited data

How the results depend on the processing

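Under 20 alternatives, 331 of 343 fold changes of the markers kept their side of the threshold, 328 of them with the same sign, and 12 newly passed it in the same direction. The 3 sign changes were of values near 0 that passed in neither setting, all in lactoferrin + PM2.5 against PM2.5: CLU from -0.05 to 0.06 with library weights and to 0.01 without control replicate 3 and lactoferrin + PM2.5 replicate 1, and CD24 from -0.04 to 0.0028 without PM2.5 replicate 3. Library weights moved the number of markers called in lactoferrin + PM2.5 against PM2.5 from 0 to 2, HAVCR1 (-0.68, limma adjusted p = 0.00726) and SOX4 (-0.39, adjusted p = 0.0201); the same weights called 1826 of all genes there, beside 7 without, and the cause was not tested. Over all alternatives HAVCR1 ranged there from -0.73 to -0.52 (limma adjusted p 0.00726 to 0.721). The other 10 changes were those of CLU against control, which passed with PM2.5 under 6 settings, among them no scaling (0.33, adjusted p = 0.0226), only the 6 libraries compared (0.28, adjusted p = 0.0474) and without lactoferrin + PM2.5 replicate 1 (0.28, adjusted p = 0.0377). Without control replicate 3 and lactoferrin + PM2.5 replicate 1 together, the 2 libraries that stood apart, CLU passed against control with PM2.5 (0.37, limma adjusted p = 0.00897) and lactoferrin + PM2.5 (0.38, adjusted p = 0.0117). The 7 calls over all genes in lactoferrin + PM2.5 against PM2.5 fell to 0 when lactoferrin + PM2.5 replicate 2 was left out, and likewise for replicate 1 or replicate 2 of the PM2.5 group. Replicate numbers are shared between groups, and the labels do not say whether they pair samples. Deviations of same-numbered libraries correlated from -0.0682 to 0.179, and 6 of 9 libraries agreed best with their own number. Whether the numbers pair samples cannot be told from these values. With the replicate block, 4, 0 and 4 markers were called in PM2.5 against control, lactoferrin + PM2.5 against PM2.5 and lactoferrin + PM2.5 against control. Each replicate number occurs in every group, so the block cannot change the fold changes, and HAVCR1 stayed at -0.99, -0.63 and -1.62. Its SE went from 0.16 to 0.10, and its limma adjusted p in lactoferrin + PM2.5 against PM2.5 from 0.297 to 0.0784. Over all genes 5681, 13 and 6034 were called, beside 5077, 7 and 5569 without the block. SOX9 rested on 26 to 45 reads per library and PROM1 on at most 6.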
